A study of Homo sapiens with 89 samples.

Results

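Semaphorins, plexins and neuropilins were followed through the RNA sequencing of 2 human neuroblastoma cell lines. The members are the genes whose symbol starts with SEMA3, SEMA4, SEMA5, SEMA6, SEMA7 or PLXN, together with NRP1 and NRP2, without pseudogenes and without the 6 antisense genes of these loci. They came to 31 of the 57905 gene rows in each count table, with 20 semaphorins, 9 plexins and 2 neuropilins. The series holds 89 samples of several assays, of which 15 libraries of polyadenylated RNA are described here. IMR-32 is a neuroblastoma line with amplified MYCN. Its 3 shEXOSC10 libraries came from cells in which 1 µg/ml doxycycline induced a short hairpin RNA against EXOSC10, a 3′ to 5′ exonuclease of the nuclear RNA exosome, and its 3 Control libraries, whose table columns are named EtOH, had no doxycycline. SHEP is a neuroblastoma line without MYCN amplification. Its 3 libraries labelled MYCN 3A and its 3 libraries labelled wild type MYCN had 1 µg/ml doxycycline to induce a MYCN construct, where 3A is a triple mutant described by the labels as deficient in RNA binding. The 3 SHEP libraries labelled no MYCN had no doxycycline. The labels do not say which construct the no MYCN cells carried, whether a line was a single clone, or whether replicates came from separate cultures, so p-values measure the spread between these libraries, which may be technical. Doxycycline and the induced hairpin or construct cannot be told apart in the comparisons with Control or no MYCN, whereas the comparison of 3A with wild type had doxycycline on both sides.

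Semaphorins are guidance cues first known from growing axons and later from blood vessels, immune cells and tumours. Class 3 members are secreted, classes 4 to 6 span the membrane and SEMA7A is anchored to it by a lipid. Plexins are the receptors and act on small GTPases and the cytoskeleton, and most class 3 semaphorins need a neuropilin to bind the plexin, while NRP1 and NRP2 also serve as co-receptors of vascular endothelial growth factors. Neural crest cells, from which neuroblastoma arises, use these cues while they migrate.

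The libraries held 16394148 to 26193478 counts in IMR-32 and 11638859 to 15353505 counts in SHEP, and each library correlated better with its own group than with any other. EXOSC10 had 49, 46.6 and 46.1 CPM (read counts put on a common library size by TMM) in shEXOSC10 libraries, against 74.6, 63.9 and 67 CPM in Control libraries. It fell by 0.54 on the log2 scale (SE 0.08, edgeR quasi-likelihood test with Benjamini-Hochberg adjusted p = 2.27e-08). MYCN was lower in the same libraries, at 596, 594 and 605 CPM in shEXOSC10 libraries and 1090, 1090 and 1110 CPM in Control libraries. In SHEP the MYCN row held 0.745, 0 and 0 CPM in libraries labelled 3A, 0.136, 0 and 0 CPM in those labelled wild type and 0.248, 0 and 0 CPM in those labelled no MYCN. The row therefore does not check the SHEP labels, and whether construct transcripts could be counted in it was not tested. The SHEP groups are called by their labels below, and each direction drawn from them rests on those labels. EXOSC10 was also lower in libraries labelled 3A, at 62.5, 57 and 64.8 CPM, against 90, 83.6 and 69.5 CPM in libraries labelled no MYCN (log2 fold change -0.40, edgeR adjusted p = 0.00955), a call lost without no MYCN replicate 1 (adjusted p = 0.0787) or 3A replicate 2 (adjusted p = 0.0565).

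Marker genes of neuroblastoma cell states set the lines apart. Summed over 12 adrenergic neuroblastoma genes, the level was 3680 to 3920 TPM (counts per exon length, scaled to the same sum in each library) in IMR-32 Control libraries and 96.2 to 104 TPM in SHEP libraries labelled no MYCN. Summed over 12 mesenchymal genes, it was 390 to 421 TPM and 3640 to 3860 TPM in the same groups. Endothelial, epithelial and leukocyte lists, with 4, 5 and 5 genes found of 5 each, summed to at most 2.74 TPM in any library, with CLDN5 at 0 in all of them. The adrenergic sum moved with EXOSC10 depletion, at 2250 to 2320 TPM in shEXOSC10 libraries against 3680 to 3920 TPM in Control libraries, with 3 genes called higher and 8 lower. A Schwann cell list summed to 9.49 to 13.9 TPM in shEXOSC10 libraries and 16.7 to 21 TPM in Control libraries, with SOX10 at 0 in all 6. Only 2 of its 5 genes were tested in IMR-32, with 1 called higher and 1 lower on depletion. The mesenchymal sum was 3160 to 3270 TPM in libraries labelled 3A, 4190 to 4500 TPM in those labelled wild type and 3640 to 3860 TPM in those labelled no MYCN. Its 12 genes did not move as a set. Against no MYCN, 1 was called higher and 6 lower for 3A, and 4 higher and 4 lower for wild type. The part of these shifts in the results below was not tested, and fewer cells of a type cannot be told apart from less RNA per cell in such bulk samples.

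The lines differed in which ligands and receptors they carried. Levels per exon length were set side by side for IMR-32 Control and SHEP no MYCN libraries, both without doxycycline, as a description without a test, since the lines were counted in separate tables and line and sequencing run cannot be told apart. All 31 members passed the count filter over these 6 libraries. PLXNA4, PLXNB3, PLXNC1, SEMA3G, SEMA4A, SEMA4G, SEMA5B, SEMA6A and SEMA6D did not pass it over the SHEP libraries alone. These members entered through IMR-32 and could come out only as higher there or as not meeting the rule below. SEMA3C was past the filter's cut in no IMR-32 group, so the reverse held for it. With at least 4-fold in mean TPM and ranges that do not overlap as the rule, 16 members were higher and 2 were lower in IMR-32, where 41.2% of 17657 genes met the rule (26.6% higher, 14.6% lower).

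Receptors led the IMR-32 order. PLXNB2 averaged 172 ± 8.63 TPM, PLXNA1 119.6 ± 7.99 TPM and the transmembrane ligand SEMA4C 108 ± 7.94 TPM in IMR-32 Control libraries (SD, n = 3 each), and the ranges of PLXNA1 and SEMA4C overlapped. They were followed by SEMA6C at 82.4 ± 1.89 TPM and PLXNB1, a receptor of SEMA4D, at 74.4 ± 2.19 TPM, each apart from its neighbours. PLXNA3 at 48.2 ± 2.07 TPM, SEMA6D at 47.6 ± 2.04 TPM and NRP1 at 43.4 ± 3.35 TPM had overlapping ranges. SEMA6D, a ligand of PLXNA1, was at 0 in all 3 SHEP libraries labelled no MYCN. Against a floor of 3 counts over that group, it was at least 1920-fold higher in IMR-32, SEMA4G at least 481-fold, SEMA5B at least 75.5-fold and PLXNA4 at least 30.3-fold. The floor covers counting error only and treats read ends as independent. SEMA4G faces MRPL43 on the other strand over 22.3% of its exon bases, and MRPL43 held 917 to 1010 counts in the SHEP libraries in which SEMA4G had 0. Among members with counts in both lines, SEMA4A stood 354-fold higher in IMR-32, SEMA6A 132-fold, PLXNB1 50.7-fold, SEMA6C 42.8-fold, PLXNA3 29.1-fold and SEMA5A 18.8-fold, while PLXNB3, SEMA4C, PLXNC1, PLXNA1, SEMA4D and NRP2 lay between 12.9-fold and 4.84-fold. The high ratio of SEMA4A rests on 2 counts in SHEP.

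SHEP had a narrower set with a secreted ligand near its top. PLXNB2 again led at 72.1 ± 3.21 TPM in libraries labelled no MYCN, and SEMA3C, a secreted ligand that acts through neuropilins, came next at 59.0 ± 10.0 TPM with an overlapping range. SEMA3C held 8, 20 and 4 counts in IMR-32 Control libraries, so that its mean level of 0.267 ± 0.210 TPM there stood 222-fold below that of SHEP. SEMA6B averaged 34.0 ± 4.45 TPM, SEMA7A 27.0 ± 4.73 TPM and NRP1 21.8 ± 2.19 TPM in libraries labelled no MYCN, with overlap between the last 2. SEMA7A, which binds PLXNC1 and beta1 integrin, was the other member lower in IMR-32, at 5.68 ± 0.262 TPM, 4.76-fold under SHEP. Class 3 semaphorins made up 7.47% ± 0.294 of all semaphorin TPM in IMR-32 Control libraries and 45.0% ± 4.10 in SHEP libraries labelled no MYCN. They averaged 31.1 of 416 TPM in IMR-32 and 82.45 of 183 TPM in SHEP. SEMA3C alone gave 59.0 TPM of the SHEP value, so the share does not describe the class as a whole. The remaining 13 members were under 4-fold or overlapped, among them SEMA3F, SEMA3A and PLXNA2, whose ratios of IMR-32 over SHEP were 0.996, 1.14 and 1.06.

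**Figure D1:**
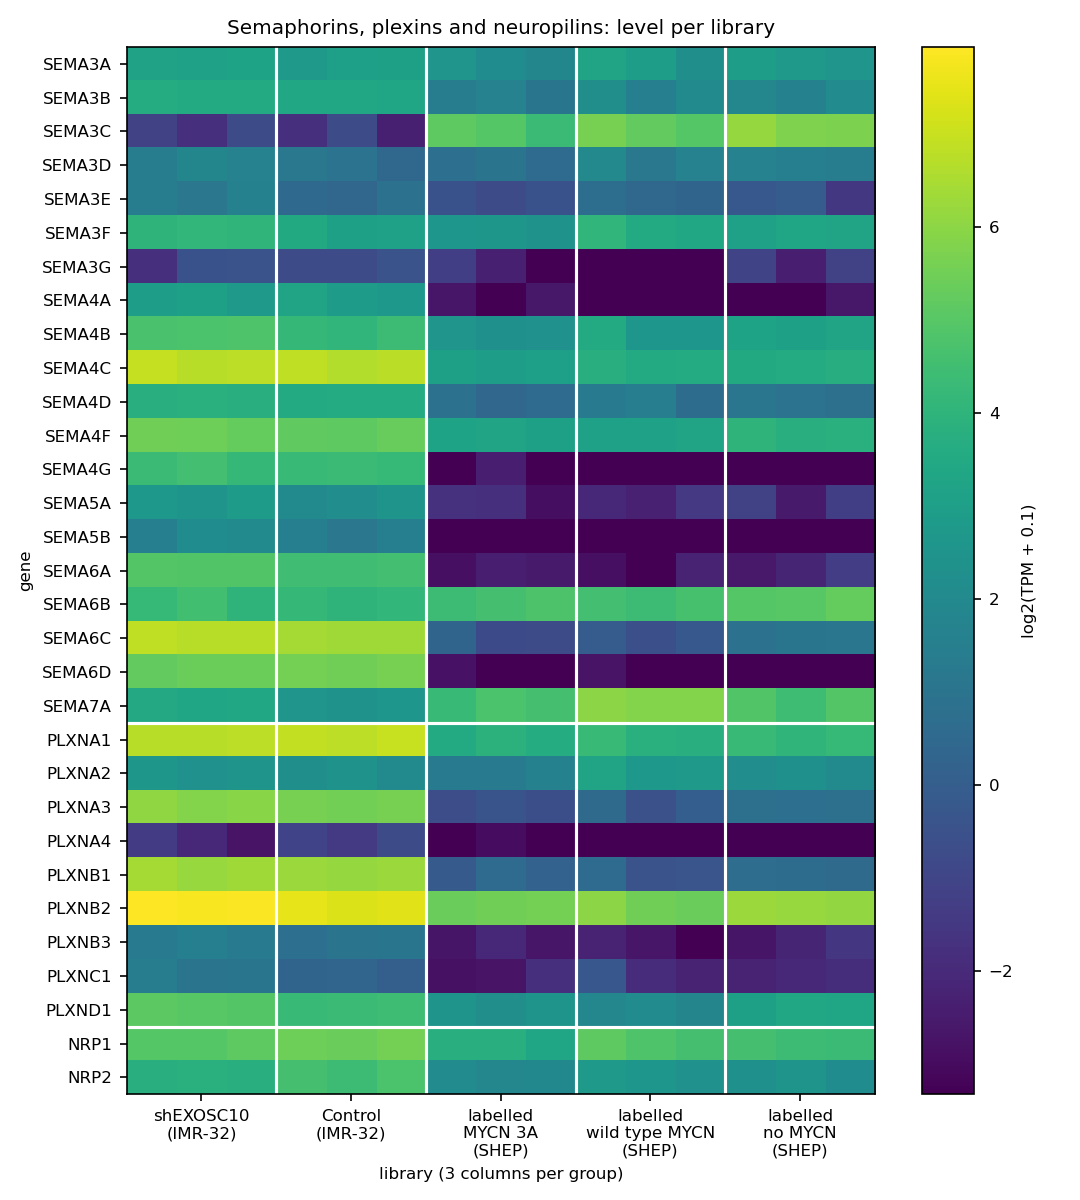
Level of each of the 31 members in each of the 15 libraries, as log2(TPM + 0.1), with 3 columns per group and white lines between groups and between semaphorins, plexins and neuropilins. PLXNB2 is bright in every library, SEMA6D, SEMA4G and SEMA6A are dark in SHEP, and SEMA3C is dark in IMR-32.

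On depletion of EXOSC10 in IMR-32 both neuropilins fell, while 9 of the 20 semaphorins rose, led in size by SEMA7A, SEMA3E, SEMA3F and SEMA3D, and of the plexins PLXNC1, PLXND1, PLXNB2 and PLXNA3 rose. All 31 members passed the count filter, and 13 were called higher and 5 lower at an adjusted p under 0.05, where 27.1% of the 17103 genes tested were called (13.5% higher, 13.7% lower). Ranges did not overlap for 20 of the 31 members, 16 of them called, where 38.4% of all genes tested had ranges apart. The median log2 fold change was 0.26 over the members and -0.0011 over all genes tested. Of the 18 calls, 13 held under all 11 alternative settings and 0 turned direction under any of them.

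Among the 7 secreted class 3 ligands, 3 rose and 4 did not pass the test. SEMA3F, which binds NRP2, had 23.7, 26 and 24.8 CPM in shEXOSC10 libraries, against 17.1, 12.5 and 12.4 CPM in Control libraries. Every depleted library was above every Control library (log2 fold change 0.83, SE 0.12, edgeR adjusted p = 5.29e-08). SEMA3D had 6.46, 8.82 and 7.73 CPM in shEXOSC10 libraries and 5.53, 4.7 and 3.09 CPM in Control libraries, again without overlap (log2 fold change 0.78, SE 0.21, edgeR adjusted p = 0.00232). SEMA3E, which can bind PLXND1 without a neuropilin, had 5.44, 4.41 and 6.21 CPM in shEXOSC10 libraries and 2.86, 2.55 and 3.66 CPM in Control libraries. Its groups did not overlap either (log2 fold change 0.83, SE 0.24, edgeR adjusted p = 0.0055), but the call was lost without shEXOSC10 replicate 3 (edgeR adjusted p = 0.0677). SEMA3A, the growth cone collapsing factor that binds NRP1, and SEMA3B did not pass the test, at log2 fold changes of 0.21 and 0.24 (edgeR adjusted p = 0.134 and 0.107). SEMA3C and SEMA3G stayed at or under 0.985 CPM in every IMR-32 library.

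Of the membrane ligands, SEMA4B was the one class 4 member of 6 that passed, with 56.7, 58.5 and 61.9 CPM in shEXOSC10 libraries and 39.7, 36.7 and 44.8 CPM in Control libraries. The groups lay apart (log2 fold change 0.55, SE 0.08, edgeR adjusted p = 8.12e-08). SEMA4C, the most abundant semaphorin of IMR-32, and SEMA4A, SEMA4D, SEMA4F and SEMA4G had log2 fold changes from -0.03 to 0.18 and edgeR adjusted p from 0.0692 to 0.892. SEMA5A, a ligand with thrombospondin repeats, had 23.4, 20.7 and 26.4 CPM in shEXOSC10 libraries and 15.8, 16.7 and 20.2 CPM in Control libraries, barely apart (log2 fold change 0.43, SE 0.12, edgeR adjusted p = 0.003). This call was lost without shEXOSC10 replicate 3 (edgeR adjusted p = 0.0701). SEMA5B had 5.34, 8.51 and 7.77 CPM in shEXOSC10 libraries and 5.53, 4.11 and 5.18 CPM in Control libraries, which overlapped. Its call (log2 fold change 0.54, edgeR adjusted p = 0.0396) was lost with DESeq2 (adjusted p = 0.0606), without the count filter (0.052) and without Control replicate 2 or 3 or shEXOSC10 replicate 2 or 3 (adjusted p 0.0582 to 0.208).

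Class 6 ligands, which bind A plexins directly, split. SEMA6C had 209, 188 and 186 CPM in shEXOSC10 libraries and 154, 146 and 142 CPM in Control libraries (log2 fold change 0.40, SE 0.05, edgeR adjusted p = 7.63e-09). SEMA6A had 102, 101 and 99.8 CPM in shEXOSC10 libraries and 76.4, 76.1 and 76.8 CPM in Control libraries (log2 fold change 0.40, SE 0.06, edgeR adjusted p = 4.61e-07), and it shares 6.52% of its exon bases with an unnamed gene on the same strand. Both rose with no overlap of groups. SEMA6D went the other way, at 99.5, 112 and 110 CPM in shEXOSC10 libraries and 131, 121 and 127 CPM in Control libraries, also apart (log2 fold change -0.23, SE 0.06, edgeR adjusted p = 0.00188). SEMA6B had a log2 fold change of 0.16 (edgeR adjusted p = 0.312). SEMA7A, the membrane-anchored class 7 member, had 14.8, 13 and 13.7 CPM in shEXOSC10 libraries and 7.77, 7.25 and 7.7 CPM in Control libraries. The groups lay far apart (log2 fold change 0.87, SE 0.15, edgeR adjusted p = 2.93e-06).

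SEMA3E, SEMA3F and SEMA7A were called higher on EXOSC10 depletion and also in SHEP libraries labelled wild type MYCN against those labelled no MYCN. Their promoter windows are therefore shown, each 300 bases from 250 before to 50 after the first RefSeq start site, from RefSeq on GRCh38.p14 and on the gene's strand. The canonical E-box CACGTG, the same on both strands and known as a MYC and MAX binding sequence, is in capitals where it occurs. SEMA3E lies at chr7:83649090-83649389 (minus strand), SEMA3F at chr3:50154808-50155107 (plus strand) and SEMA7A at chr15:74433909-74434208 (minus strand).
SEMA3E: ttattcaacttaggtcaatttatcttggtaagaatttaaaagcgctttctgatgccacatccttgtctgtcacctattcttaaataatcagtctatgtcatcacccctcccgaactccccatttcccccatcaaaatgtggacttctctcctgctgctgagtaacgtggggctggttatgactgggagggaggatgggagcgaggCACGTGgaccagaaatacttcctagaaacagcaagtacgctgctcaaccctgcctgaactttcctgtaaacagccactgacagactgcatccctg
SEMA3F: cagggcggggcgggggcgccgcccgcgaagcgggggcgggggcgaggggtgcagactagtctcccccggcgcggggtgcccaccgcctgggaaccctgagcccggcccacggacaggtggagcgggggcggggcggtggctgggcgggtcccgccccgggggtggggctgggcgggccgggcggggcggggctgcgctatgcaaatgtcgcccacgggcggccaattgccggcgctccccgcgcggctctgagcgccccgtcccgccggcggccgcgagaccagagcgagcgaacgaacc
SEMA7A: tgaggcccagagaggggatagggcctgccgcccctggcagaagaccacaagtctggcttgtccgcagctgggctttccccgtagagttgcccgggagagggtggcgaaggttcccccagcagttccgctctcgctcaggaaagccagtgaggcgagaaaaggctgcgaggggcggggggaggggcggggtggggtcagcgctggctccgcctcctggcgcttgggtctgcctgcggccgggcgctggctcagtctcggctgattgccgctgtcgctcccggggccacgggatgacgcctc
The SEMA3E window shown holds CACGTG 45 bases before the start site, while the other SEMA3E window does not hold these letters. The windows shown for SEMA3F and SEMA7A do not hold them either. GC content was 47.3% in the SEMA3E window, 81.3% in that of SEMA3F and 70.0% in that of SEMA7A. Windows were matched for 27 of the 31 members, 48 in all because some genes have several start sites. CACGTG was in 3 of the 48, or 6.2%, against 7.3% of all 35116 windows. The other matches were SEMA4D, 50 bases before its start, and SEMA6D, 28 bases before its start. A match is a description of the letters in the window. NRP1, SEMA3A, SEMA6A and SEMA6B had no entry.

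Among the receptors, PLXNB2, which binds class 4 ligands such as SEMA4C, had 546, 517 and 521 CPM in shEXOSC10 libraries and 415, 371 and 373 CPM in Control libraries. PLXNB2, by TPM the most abundant member in both groups, thus rose without overlap (log2 fold change 0.45, SE 0.04, edgeR adjusted p = 2.91e-13). PLXND1, the receptor of SEMA3E, had 104, 96.8 and 90.7 CPM in shEXOSC10 libraries and 61.3, 61.3 and 63.3 CPM in Control libraries (log2 fold change 0.65, SE 0.07, edgeR adjusted p = 1.49e-12). PLXNA3 had 154, 136 and 145 CPM in shEXOSC10 libraries and 118, 108 and 113 CPM in Control libraries (log2 fold change 0.36, SE 0.06, edgeR adjusted p = 7.13e-07). PLXNC1, the plexin of SEMA7A, was low but apart, at 7.83, 5.92 and 6.14 CPM in shEXOSC10 libraries and 3.5, 3.58 and 2.9 CPM in Control libraries (log2 fold change 1.00, SE 0.22, edgeR adjusted p = 0.00028).

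A pair of A plexins fell. PLXNA1 had 361, 362 and 378 CPM in shEXOSC10 libraries and 415, 379 and 420 CPM in Control libraries, with the nearest libraries almost touching (log2 fold change -0.14, SE 0.05, edgeR adjusted p = 0.0142). Its call was lost without Control replicate 3 (edgeR adjusted p = 0.0759), shEXOSC10 replicate 1 (0.0653) or shEXOSC10 replicate 2 (0.0718). PLXNA4 had 1.47, 0.725 and 0.265 CPM in shEXOSC10 libraries and 1.94, 1.42 and 2.57 CPM in Control libraries, which overlapped. It passed the count filter through the Control group alone, and its call (edgeR adjusted p = 0.0309) was lost with DESeq2 (adjusted p = 0.0514) and without Control replicate 1 or 3 or shEXOSC10 replicate 2 or 3 (0.0578 to 0.223). PLXNA2, PLXNB1 and PLXNB3 had log2 fold changes of 0.26, 0.11 and 0.46 and did not pass (edgeR adjusted p = 0.0835, 0.103 and 0.124). PLXNB3 shares 20.1% of its exon bases with SRPK3 on the same strand, so reads of the 2 genes cannot all be told apart.

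Both neuropilins fell. NRP2 (chr2:206546714-206662857, hg19), which favours SEMA3F and SEMA3C, had 45.9, 49.2 and 46.8 CPM in shEXOSC10 libraries, against 86.1, 74.5 and 90.1 CPM in Control libraries. NRP1 (chr10:33466420-33625190, hg19) had 112, 110 and 124 CPM in shEXOSC10 libraries, against 156, 145 and 163 CPM in Control libraries. Every depleted library was below every Control library for both, with a log2 fold change of -0.82 (SE 0.07, edgeR adjusted p = 5.05e-15) for NRP2 and -0.42 (SE 0.06, edgeR adjusted p = 1.5e-08) for NRP1. Summed per length, the 20 semaphorins reached 487 ± 13.8 TPM in shEXOSC10 libraries and 416 ± 15.9 TPM in Control libraries (SD, n = 3 each). The 9 plexins reached 528 ± 20.1 TPM in shEXOSC10 libraries and 443 ± 17.7 TPM in Control libraries. Neuropilins together had 45.8 ± 1.89 TPM in shEXOSC10 libraries and 67.2 ± 5.94 TPM in Control libraries, and the ranges of all 3 sums lay apart between groups. The A plexins alone summed to 176 ± 5.69 TPM in shEXOSC10 libraries and 173 ± 9.25 TPM in Control libraries, with overlapping ranges.

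**Figure D2:**
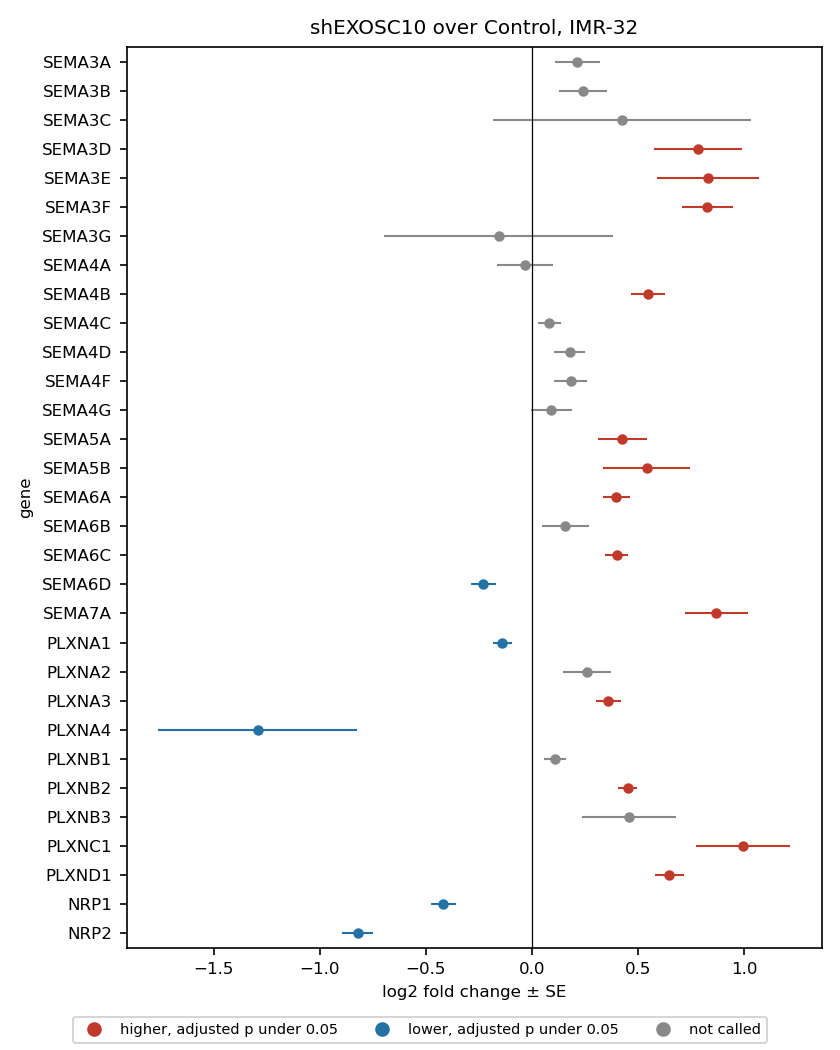
Log2 fold change of shEXOSC10 over Control libraries of IMR-32 for the 31 members, with bars of 1 SE from edgeR's fit over 3 libraries per group and colour for the call at an adjusted p under 0.05. NRP2 at -0.82 and NRP1 at -0.42 lie left of 0, and SEMA7A, SEMA3E and SEMA3F lie between 0.83 and 0.87.

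**Figure D3:**
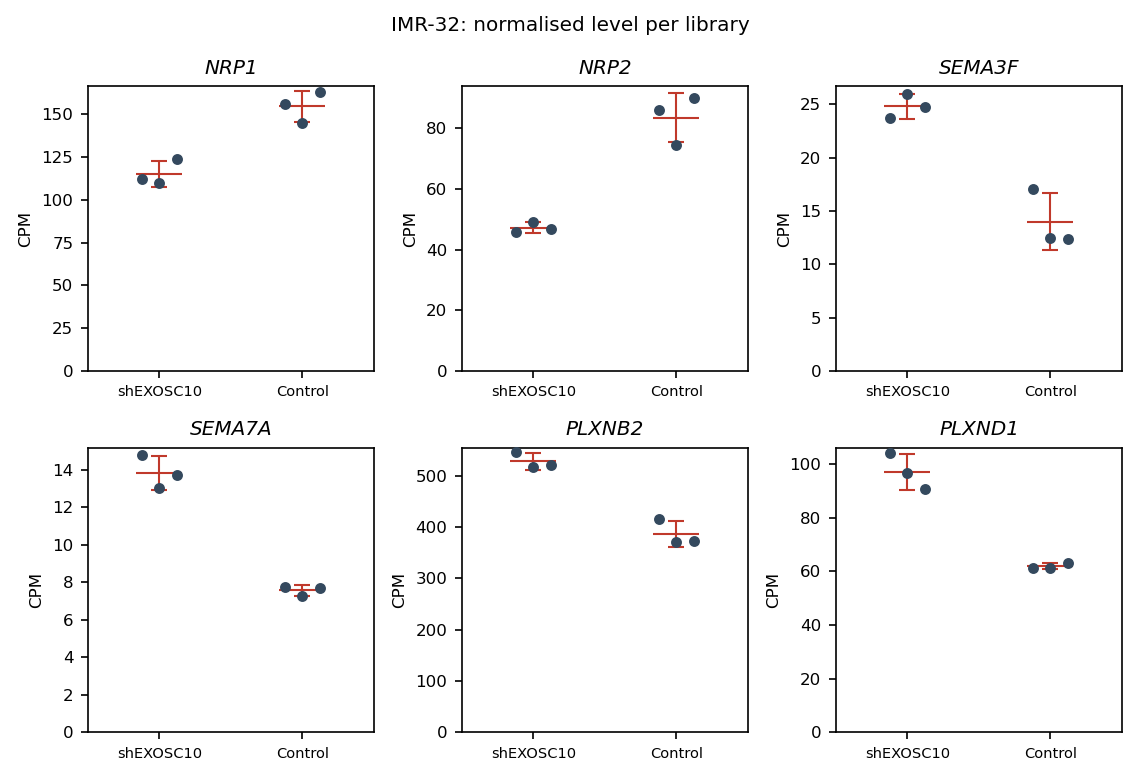
CPM of 6 members in each IMR-32 library, as points, with the mean and SD of the 3 libraries per group as red bars. In each panel the shEXOSC10 and Control points do not overlap: NRP1 and NRP2 are lower in shEXOSC10, and SEMA3F, SEMA7A, PLXNB2 and PLXND1 are higher.

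Partners and effectors of semaphorin signalling, a list of 51 genes outside the family, were tested in the same fit. Of 44 that passed the count filter, 10 rose and 8 fell, which is 40.9% called, where 27.1% of all genes tested were called (13.5% higher, 13.7% lower). The median log2 fold change over the partners was -0.04. L1CAM, an adhesion molecule that associates with NRP1 in the response to SEMA3A, had 193, 190 and 196 CPM in shEXOSC10 libraries and 118, 105 and 124 CPM in Control libraries (log2 fold change 0.74, SE 0.06, edgeR adjusted p = 2.69e-18). Its relative CHL1 also rose, with 25.6, 25.1 and 28.4 CPM in shEXOSC10 libraries and 13.3, 13.6 and 17.7 CPM in Control libraries (log2 fold change 0.83, SE 0.12, edgeR adjusted p = 2.12e-08). VEGFA, a growth factor that uses neuropilins, had 90, 71.1 and 83.3 CPM in shEXOSC10 libraries and 140, 130 and 143 CPM in Control libraries (log2 fold change -0.75, SE 0.06, edgeR adjusted p = 1.23e-15). Thus the neuropilin ligand VEGFA fell together with both neuropilins. The kinase FYN, which acts under A plexins, fell by 0.57 on the log2 scale (SE 0.06, edgeR adjusted p = 1.06e-11), and FARP1, a guanine nucleotide exchange factor, by 0.35 (SE 0.06, edgeR adjusted p = 6.52e-07). DPYSL2, the collapsin response mediator of SEMA3A, rose by 0.37 on the log2 scale (SE 0.06, edgeR adjusted p = 8.66e-07). These 6 calls held under all 11 alternative settings.

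In SHEP, 22 of the 31 members passed the count filter. The 9 that did not, PLXNA4, PLXNB3, PLXNC1, SEMA3G, SEMA4A, SEMA4G, SEMA5B, SEMA6A and SEMA6D, lay between 0 and 2.31 CPM in every SHEP library. The libraries labelled 3A had lower levels of many members than those labelled no MYCN: 13 of 22 were called lower and 0 higher, where 25.5% of the 14923 genes tested were called (12.8% lower, 12.7% higher). With unadjusted p under 0.05 the counts were 15 lower and 0 higher, and with DESeq2 they were 12 lower and 0 higher. The libraries labelled wild type went in both directions, with 5 members higher and 6 lower than in libraries labelled no MYCN, where 22.2% of genes were called (10.9% higher, 11.3% lower). Set against each other, the libraries labelled 3A had 1 member higher and 9 lower than those labelled wild type, where 30.3% of genes were called (14.5% higher, 15.8% lower). The median log2 fold change over the 22 members was -0.53 for 3A over no MYCN, -0.02 for wild type over no MYCN and -0.49 for 3A over wild type, against -0.0379, -0.00439 and -0.00302 over all genes tested. The comparisons share libraries, so their values are given side by side and are not independent.

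Ranges did not overlap for 13 of the 22 members for 3A over no MYCN, for 13 for wild type over no MYCN and for 9 for 3A over wild type, where 41.3%, 37.5% and 40.4% of all genes tested had ranges apart. Of the calls, 5 of 13 for 3A, 6 of 11 for wild type and 6 of 10 between the forms held under all of the 12 alternative settings, and 0 turned direction under any of them. Leaving out a single library gave 8 to 12 calls for 3A over no MYCN, with 8 without no MYCN replicate 2. It gave 7 to 12 for wild type over no MYCN, with 7 without wild type replicate 2, and 7 to 12 for 3A over wild type.

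NRP1 was called in opposite directions for the labelled forms. It had 57.1, 55.1 and 41.8 CPM in libraries labelled 3A, 132, 113 and 101 CPM in those labelled wild type and 89, 78.7 and 77.6 CPM in those labelled no MYCN. The 3 groups did not overlap, with 3A lowest and wild type highest. NRP1 fell in libraries labelled 3A (log2 fold change -0.67, SE 0.12, edgeR adjusted p = 0.000315) and rose in those labelled wild type (0.49, SE 0.11, edgeR adjusted p = 0.00267), both against no MYCN. Between the forms the log2 fold change of 3A over wild type was -1.17 (SE 0.12, edgeR adjusted p = 1.98e-07). NRP2 had 17.2, 14.5 and 16.1 CPM in libraries labelled 3A, 23.9, 23.1 and 20.6 CPM in those labelled wild type and 17.8, 20.6 and 16.2 CPM in those labelled no MYCN. It was lower in 3A than in wild type (log2 fold change -0.50, SE 0.14, edgeR adjusted p = 0.00986), a call lost without 3A replicate 2 (0.0529), and neither form passed against no MYCN. The neuropilin sum was 16.1 ± 2.29 TPM in libraries labelled 3A, 35.3 ± 6.41 TPM in those labelled wild type and 26.7 ± 2.33 TPM in those labelled no MYCN (SD, n = 3 each), with no overlap between groups.

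PLXNA2 and SEMA3F followed the same order. PLXNA2 (chr1:208195587-208417665, hg19), an A plexin that pairs with neuropilins and binds SEMA6A, had 11.8, 12 and 15.6 CPM in libraries labelled 3A, 41.8, 30.4 and 32 CPM in those labelled wild type and 19.5, 22.7 and 17.8 CPM in those labelled no MYCN. Its log2 fold change was -0.60 for 3A over no MYCN (SE 0.16, edgeR adjusted p = 0.00755), 0.80 for wild type over no MYCN (SE 0.15, edgeR adjusted p = 0.000395) and -1.40 for 3A over wild type (SE 0.16, edgeR adjusted p = 8.74e-07). The 3A call was lost without no MYCN replicate 2 (edgeR adjusted p = 0.0519). SEMA3F (chr3:50192478-50226508, hg19) had 10.4, 10.6 and 9.45 CPM in libraries labelled 3A, 26.3, 19.2 and 18.8 CPM in those labelled wild type and 13.2, 16 and 15.2 CPM in those labelled no MYCN. Its groups again lay apart, with log2 fold changes of -0.55 for 3A over no MYCN (SE 0.16, edgeR adjusted p = 0.0177), 0.53 for wild type over no MYCN (SE 0.16, edgeR adjusted p = 0.0148) and -1.08 for 3A over wild type (SE 0.16, edgeR adjusted p = 3.38e-05). The 3A call was lost without no MYCN replicate 2 (edgeR adjusted p = 0.0762) or 3A replicate 3 (0.0676). The wild type call was lost without no MYCN replicate 1 (edgeR adjusted p = 0.0797) or wild type replicate 1 (0.0987), and the call between the forms held under all 12 settings.

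SEMA7A (chr15:74701630-74726808, hg19) differed in the libraries labelled wild type. It had 30.3, 41.4 and 39.2 CPM in libraries labelled 3A, 85.6, 85.2 and 89.5 CPM in those labelled wild type and 39.6, 30.7 and 43.6 CPM in those labelled no MYCN. The wild type group stood above both others, which overlapped each other. Its log2 fold change was 1.19 for wild type over no MYCN (SE 0.12, edgeR adjusted p = 3.32e-07) and -1.23 for 3A over wild type (SE 0.13, edgeR adjusted p = 2.7e-07). For 3A over no MYCN it was -0.04 (SE 0.13), which did not pass (edgeR adjusted p = 0.847). In TPM SEMA7A reached 59.0 ± 2.56 in libraries labelled wild type, above every other semaphorin there, SEMA3C included at 39.1 ± 9.42, with no overlap.

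**Figure D4:**
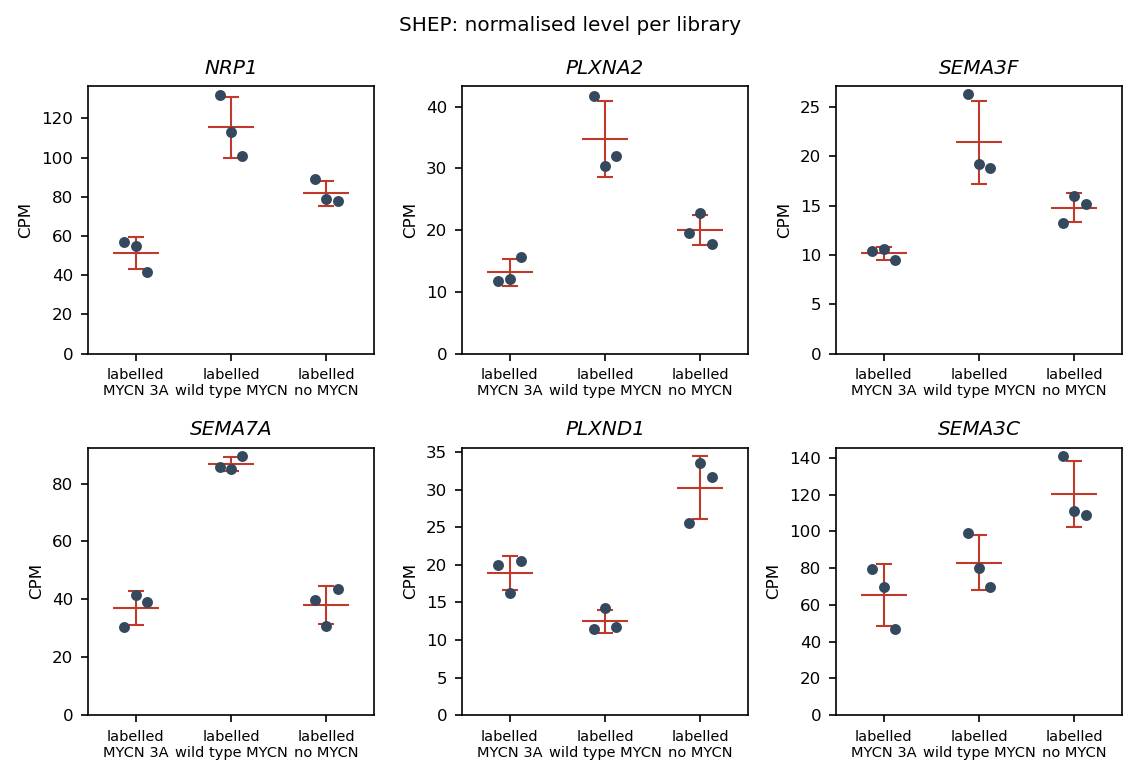
CPM of 6 members in each SHEP library, as points, with the mean and SD of the 3 libraries per labelled group as red bars. NRP1, PLXNA2 and SEMA3F are lowest in 3A and highest in wild type, SEMA7A is highest in wild type, PLXND1 is lowest in wild type, and SEMA3C is highest in no MYCN.

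PLXND1 (chr3:129274018-129325661, hg19) ran the other way. It had 20, 16.3 and 20.5 CPM in libraries labelled 3A, 11.4, 14.3 and 11.7 CPM in those labelled wild type and 25.6, 33.6 and 31.7 CPM in those labelled no MYCN. Both forms were below no MYCN and wild type was lowest, without overlap. The log2 fold change was -0.67 for 3A over no MYCN (SE 0.15, edgeR adjusted p = 0.00187), -1.28 for wild type over no MYCN (SE 0.15, edgeR adjusted p = 1.44e-06) and 0.61 for 3A over wild type (SE 0.15, edgeR adjusted p = 0.00449). PLXNB2 had 108, 115 and 131 CPM in libraries labelled 3A, 147, 113 and 105 CPM in those labelled wild type and 174, 172 and 166 CPM in those labelled no MYCN. Both forms lay below no MYCN, by a log2 fold change of -0.53 for 3A (SE 0.10, edgeR adjusted p = 0.000782) and -0.49 for wild type (SE 0.10, edgeR adjusted p = 0.00141). The forms overlapped each other (log2 fold change -0.05, SE 0.10, edgeR adjusted p = 0.763). PLXND1 in all 3 comparisons and PLXNB2 in both calls held under all 12 settings.

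PLXNA3 and PLXNA1 were lower in libraries labelled 3A. PLXNA3 had 1.49, 1.76 and 1.57 CPM in libraries labelled 3A, 3.33, 1.57 and 2.54 CPM in those labelled wild type and 4.09, 4.03 and 4.17 CPM in those labelled no MYCN, with 3A apart from no MYCN (log2 fold change -1.35, SE 0.32, edgeR adjusted p = 0.00379). Wild type over no MYCN did not pass for PLXNA3 (edgeR adjusted p = 0.0916). PLXNA1 had 46, 58.2 and 51.3 CPM in libraries labelled 3A, 69.3, 52.8 and 53.6 CPM in those labelled wild type and 65.5, 60.1 and 67.5 CPM in those labelled no MYCN. Its 3A call (log2 fold change -0.31, SE 0.12, edgeR adjusted p = 0.0479) was lost under 7 of the 12 settings, among them DESeq2 (adjusted p = 0.0531), RLE scaling (0.0603) and leaving out any no MYCN replicate (0.0632 to 0.137), 3A replicate 1 (0.176) or 3A replicate 3 (0.112). PLXNB1 passed in none of the 3 comparisons (edgeR adjusted p = 0.122 to 0.554).

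SEMA3C (chr7:80371854-80551675, hg19), the most abundant semaphorin in libraries labelled no MYCN, fell in both forms. It had 79.4, 69.8 and 46.9 CPM in libraries labelled 3A, 99.4, 80.3 and 69.5 CPM in those labelled wild type and 141, 111 and 109 CPM in those labelled no MYCN, with both forms below no MYCN and overlapping each other. The log2 fold change was -0.88 for 3A (SE 0.17, edgeR adjusted p = 0.00162) and -0.54 for wild type (SE 0.17, edgeR adjusted p = 0.0297). The wild type call was lost with DESeq2 (adjusted p = 0.0824) and without no MYCN replicate 1 (0.0884), wild type replicate 2 (0.0871) or wild type replicate 3 (0.106). Between the forms SEMA3C did not pass (log2 fold change -0.35, edgeR adjusted p = 0.138).

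SEMA3D, SEMA3A and SEMA3E were lower in libraries labelled 3A than in those labelled wild type. SEMA3D had 4.77, 5.53 and 4.33 CPM in libraries labelled 3A, 9.84, 6.01 and 8.74 CPM in those labelled wild type and 7.92, 7.45 and 7.12 CPM in those labelled no MYCN. Its call between the forms (log2 fold change -0.75, SE 0.21, edgeR adjusted p = 0.0102) was lost without wild type replicate 1 (0.0653). The call of SEMA3D for 3A over no MYCN (log2 fold change -0.62, SE 0.21, edgeR adjusted p = 0.0356) was lost without any no MYCN replicate, 3A replicate 1 or 3A replicate 3 (0.0544 to 0.124). SEMA3E had 1.49, 1.23 and 1.57 CPM in libraries labelled 3A, 3.39, 3.01 and 2.75 CPM in those labelled wild type and 1.61, 1.94 and 0.575 CPM in those labelled no MYCN, with wild type above both others. It was called for wild type over no MYCN (log2 fold change 1.14, SE 0.39, edgeR adjusted p = 0.0374) and for 3A over wild type (log2 fold change -1.08, SE 0.39, edgeR adjusted p = 0.0406). The first was lost with library totals (0.0531) and when wild type replicate 1 or 2, or no MYCN replicate 1 or 3, was left out (0.0544 to 0.17), and the second without wild type replicate 1 or 2 or any 3A replicate (0.0724 to 0.116). SEMA3A had 19.4, 14.7 and 12.2 CPM in libraries labelled 3A, 28.6, 24.7 and 16.1 CPM in those labelled wild type and 23.2, 19.8 and 18 CPM in those labelled no MYCN. Its groups overlapped, and its call between the forms (log2 fold change -0.58, edgeR adjusted p = 0.0223) was lost without wild type replicate 1 or 2 or 3A replicate 2 or 3 (0.0754 to 0.144). SEMA3B passed in none of the 3 comparisons (edgeR adjusted p = 0.109 to 0.706).

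SEMA4C, SEMA4F and SEMA4B, membrane ligands of class 4, were lower in libraries labelled 3A. SEMA4C had 18.8, 17.4 and 18.6 CPM in libraries labelled 3A, 26.5, 24.9 and 26.4 CPM in those labelled wild type and 21.9, 24.8 and 26.1 CPM in those labelled no MYCN, with 3A below both others. Its log2 fold change was -0.51 for 3A over wild type (SE 0.13, edgeR adjusted p = 0.00427) and -0.41 for 3A over no MYCN (SE 0.13, edgeR adjusted p = 0.0217), where the second was lost when 3A replicate 2, or no MYCN replicate 2 or 3, was left out (0.073 to 0.0882). SEMA4F had 14.9, 14.7 and 14 CPM in libraries labelled 3A, 12.1, 13.2 and 15.1 CPM in those labelled wild type and 22.2, 19.9 and 20.9 CPM in those labelled no MYCN. Both forms lay below no MYCN, by log2 fold changes of -0.53 for 3A (SE 0.14, edgeR adjusted p = 0.00863) and -0.64 for wild type (SE 0.14, edgeR adjusted p = 0.00181), and the 3A call was lost without no MYCN replicate 1 (0.0504). SEMA4B had 14.7, 12.3 and 13.2 CPM in libraries labelled 3A, 26.2, 14.2 and 14.8 CPM in those labelled wild type and 20.4, 19.1 and 22.1 CPM in those labelled no MYCN. Its 3A call (log2 fold change -0.61, SE 0.19, edgeR adjusted p = 0.0196) was lost when 3A replicate 2 or 3, or no MYCN replicate 1 or 3, was left out (0.051 to 0.0777). SEMA4D passed in none of the 3 comparisons (edgeR adjusted p = 0.0714 to 0.527).

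Among class 6 ligands SEMA6C and SEMA6B were called. SEMA6C had 2.38, 0.966 and 1.1 CPM in libraries labelled 3A, 1.63, 1.14 and 1.55 CPM in those labelled wild type and 3.22, 3.8 and 3.88 CPM in those labelled no MYCN. Both forms were below no MYCN, by log2 fold changes of -1.27 for 3A (SE 0.37, edgeR adjusted p = 0.0137) and -1.33 for wild type (SE 0.36, edgeR adjusted p = 0.01). The 3A call was lost without 3A replicate 2 (0.0669) or 3 (0.0666), and the wild type call without wild type replicate 2 (0.0562). SEMA6B had 33.7, 38.9 and 45.4 CPM in libraries labelled 3A, 33.8, 31.8 and 39.3 CPM in those labelled wild type and 43.6, 46.5 and 57.4 CPM in those labelled no MYCN. Wild type was below no MYCN (log2 fold change -0.49, SE 0.13, edgeR adjusted p = 0.00768), a call lost without no MYCN replicate 3 (0.0752) or wild type replicate 2 (0.0697), and 3A over no MYCN did not pass (edgeR adjusted p = 0.0695). SEMA5A stayed at or under 1.36 CPM in every SHEP library and passed in none of the comparisons.

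**Figure D5:**
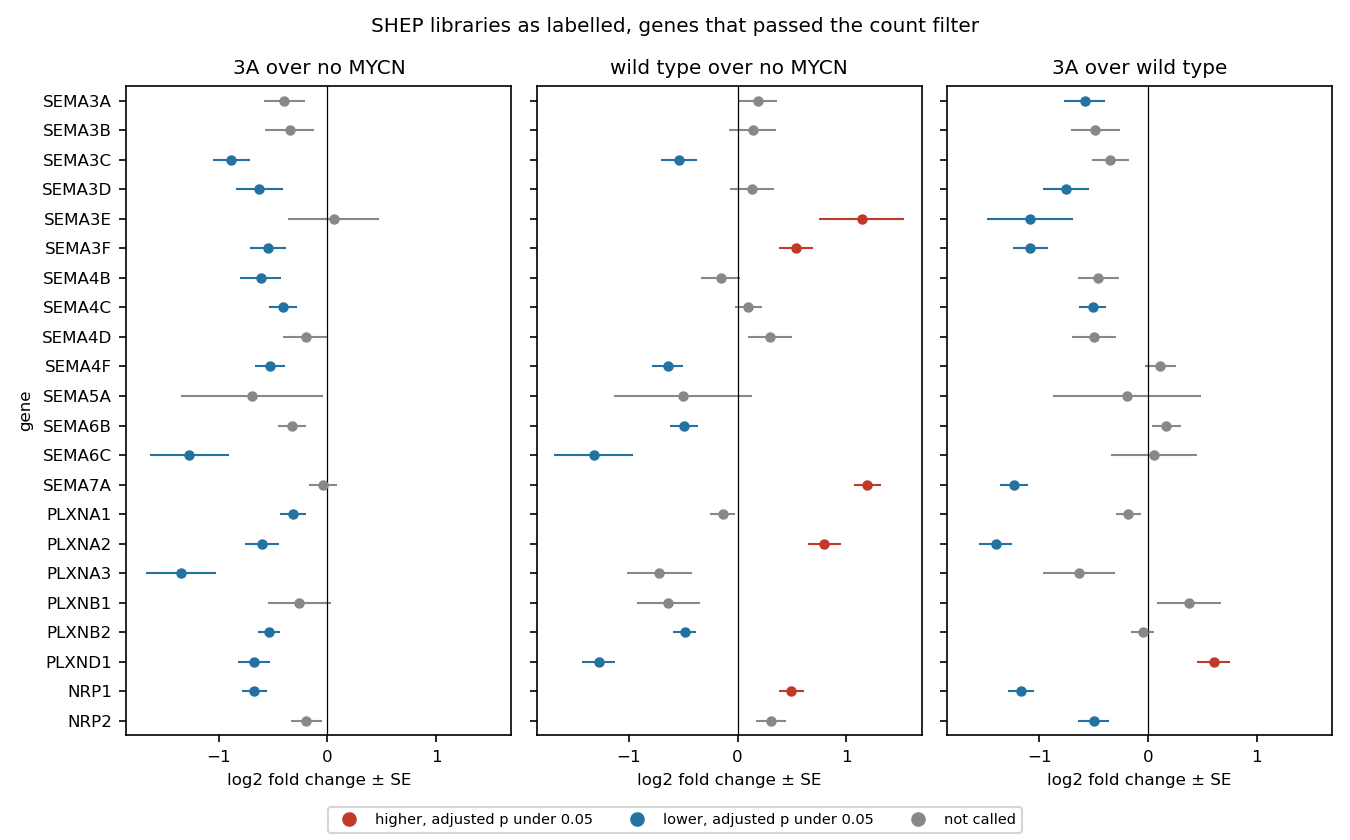
Log2 fold change of the 22 members tested in SHEP for 3A over no MYCN, wild type over no MYCN and 3A over wild type, with bars of 1 SE from edgeR's fit over 9 libraries and colour for the call at an adjusted p under 0.05, groups as labelled. The left panel has 13 lower and 0 higher calls, the middle panel 5 higher and 6 lower, and the right panel 1 higher, PLXND1, and 9 lower.

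Summed per length, semaphorins reached 117 ± 7.55 TPM in libraries labelled 3A, 182 ± 23.1 TPM in those labelled wild type and 183 ± 13.3 TPM in those labelled no MYCN (SD, n = 3 each). The 3A range lay below both others, which overlapped. Plexins reached 67.2 ± 4.84 TPM in libraries labelled 3A, 78.8 ± 18.1 TPM in those labelled wild type and 108 ± 2.75 TPM in those labelled no MYCN, with both forms below no MYCN. The make-up of the semaphorins differed too, since SEMA7A alone gave 59.0 of the 182 TPM in libraries labelled wild type, against 27.0 of 183 TPM in those labelled no MYCN.

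The same partner list was tested in SHEP. Of the 36 partners that passed the count filter, 0 were called higher and 12 lower in libraries labelled 3A than in those labelled no MYCN by edgeR, with 2 higher and 17 lower at an unadjusted p under 0.05 and 1 higher and 12 lower by DESeq2. For wild type over no MYCN 5 were higher and 4 lower, and for 3A over wild type 4 were higher and 14 lower. These are 33.3% of the partners tested for 3A over no MYCN, where 25.5% of all genes tested were called, 25% for wild type over no MYCN, near the 22.2% of all genes, and 50% for 3A over wild type, where 30.3% of all genes were called. MICAL2, a relative of the plexin effector MICAL1, had 55.8, 54.8 and 56.2 CPM in libraries labelled 3A, 179, 128 and 114 CPM in those labelled wild type and 113, 90.2 and 85.8 CPM in those labelled no MYCN. It was lower in 3A (log2 fold change -0.79, edgeR adjusted p = 0.000189) and higher in wild type (0.54, edgeR adjusted p = 0.00295), both against no MYCN. MICAL1 had 25.3, 22.3 and 22.8 CPM in libraries labelled 3A, 18.1, 16.7 and 16.4 CPM in those labelled wild type and 39.4, 37.9 and 34 CPM in those labelled no MYCN. It was thus lower in both forms, with log2 fold changes of -0.66 for 3A (edgeR adjusted p = 0.000499) and -1.12 for wild type (edgeR adjusted p = 6.41e-07).

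VEGFA went with the labelled wild type form, at 20.3, 26.7 and 18.9 CPM in libraries labelled 3A, 33.5, 30.8 and 33.1 CPM in those labelled wild type and 17.3, 18.6 and 17.8 CPM in those labelled no MYCN (wild type over no MYCN log2 fold change 0.86, SE 0.14, edgeR adjusted p = 6.44e-05). RRAS, a small GTPase on which plexins act, was lower in libraries labelled wild type than in those labelled no MYCN (log2 fold change -1.002, edgeR adjusted p = 1.85e-05) and ROCK1, a kinase of the cytoskeleton, was higher (0.46, edgeR adjusted p = 0.00112). RANBP9 was lower there (log2 fold change -0.33, edgeR adjusted p = 0.0342), a call lost without any no MYCN replicate or without wild type replicate 2 or 3 (0.0728 to 0.118). In libraries labelled 3A, the integrin ITGB1, a receptor of SEMA7A, was lower than in those labelled no MYCN (log2 fold change -0.71, edgeR adjusted p = 0.000235), as were ARHGEF12, an exchange factor bound by B plexins (-0.69, 0.000618), DPYSL2 (-0.57, 0.000392) and FURIN, the protease that cleaves class 3 semaphorins (-0.40, 0.00226). Between the forms MICAL2, ARHGEF12, DPYSL2, ITGB1, ROCK1 and MET, a kinase that B plexins bind, were all lower in 3A, with log2 fold changes from -1.34 to -0.47 and edgeR adjusted p from 1.38e-07 to 0.00136. Apart from RANBP9, each of these calls held under all 12 settings.

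Depletion of EXOSC10 in IMR-32 and the labelled forms in SHEP share no libraries, and their calls can be set side by side over the 22 members tested in both lines. Of these, 13, or 59.1%, were called on depletion, against 28.6% of the 12952 genes tested in both lines. For wild type over no MYCN, 11 were called and 7 of them were shared, which is 63.6% of the wild type calls and 53.8% of the depletion calls. SEMA3E, SEMA3F and SEMA7A were higher in both, and NRP1, PLXNB2, PLXND1 and SEMA6C went opposite ways. For 3A over no MYCN, 13 were called and 9 were shared, or 69.2% of each. The shares of the form calls, 63.6% and 69.2%, lay near the 59.1% of all 22 members called on depletion, so no overlap beyond that share is read from them. Over all genes, 35.7% of the wild type calls and 35.6% of the 3A calls were shared with depletion. Of the 9 members shared for 3A, NRP1 and PLXNA1 were lower in both, while PLXNA3, PLXNB2, PLXND1, SEMA3D, SEMA3F, SEMA4B and SEMA6C were higher on depletion and lower in libraries labelled 3A. Over all genes, 664 of the 1066 shared wild type calls and 921 of the 1276 shared 3A calls also went opposite ways. No trait of the members is therefore read from these directions. Several of the shared calls were lost under alternative settings. PLXNA1 was lost under 3 of 11 settings on depletion and 7 of 12 for 3A. SEMA3E was lost under 5 of 12 for wild type, and SEMA3D under 5 and SEMA4B under 4 of 12 for 3A. PLXND1 had log2 fold changes of 0.65 on depletion, -1.28 for wild type and -0.67 for 3A. These sets of values come from different lines and separate fits, and the difference between the lines was not tested.

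Over the 4 comparisons, 24 of the 31 members were called at least once and 7 were not. That is 77.4%, where 49.7% of the 19074 genes tested in at least 1 comparison were called at least once. NRP1, PLXND1 and SEMA3F were called in all 4, as were 135 genes in all. The 7 never called were PLXNB1, PLXNB3, SEMA3B, SEMA3G, SEMA4A, SEMA4D and SEMA4G. PLXNB1, at 260, 224 and 245 CPM in shEXOSC10 libraries and 232, 219 and 225 CPM in Control libraries, was the most abundant of them, and its groups overlapped. SEMA4D, its ligand, had 58.1, 61.1 and 58.7 CPM in shEXOSC10 libraries and 52.5, 53.4 and 51.2 CPM in Control libraries. These lay apart without passing the test (log2 fold change 0.18, SE 0.07, edgeR adjusted p = 0.0692).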

How the data were processed

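The 15 libraries hold polyadenylated RNA of IMR-32 and SHEP cells in 5 groups of 3. The authors deposited raw counts per gene in 2 tables, made with STAR 2.7.10a and featureCounts 2.0.3 on hg19, per the submitters' processing notes. The SHEP file header gives read pairs with a strand setting, and counting settings of the IMR-32 table are not given in the sources used here. Both tables list exon lengths. The MYCN 3A columns carry another short name than the label and were joined by it.

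From the counts, CPM was scaled with TMM, and TPM was computed per library from exon lengths. Genes passing edgeR's count filter were tested with edgeR 4.0.16 (robust quasi-likelihood F test, R 4.3.3), in a fit of 6 IMR-32 libraries and a fit of 9 SHEP libraries. P-values were Benjamini-Hochberg adjusted over all genes tested, with a threshold of 0.05. The steps were tested on simulated data. Alternatives were DESeq2 1.42.0, other scaling, no count filter, a replicate block and leaving out each library.

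Every member is accounted for; those called in a comparison are named with their values, and of the partner list the up to 6 called with the smallest p per comparison. The members and lists were chosen with earlier results of these data known. The other 74 samples were not used here. Promoter sequences come from RefSeq on GRCh38.p14, while the coordinates of genes are on hg19.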

Additional observations from a re-analysis of the deposited data

Results flagged for a closer look

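NRP1, PLXNA2 and SEMA3F differed between the labelled MYCN forms in SHEP, since each was called lower in libraries labelled 3A and higher in libraries labelled wild type, both against libraries labelled no MYCN. Of these calls, both of NRP1 held under all 12 alternative settings. The 3A call of PLXNA2 was lost under 1 of them, and each call of SEMA3F under 2. In the direct comparison of 3A with wild type, where both groups had doxycycline, the log2 fold change was -1.17 for NRP1, -1.40 for PLXNA2 and -1.08 for SEMA3F, and edgeR called all 3. The MYCN row does not check these labels, and EXOSC10 was lower in libraries labelled 3A, at 62.5, 57 and 64.8 CPM, than in those labelled wild type, at 105, 91.4 and 82.5 CPM. The part of either in these differences was not tested.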

How the results depend on the processing

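Leaving out each library gave 15 to 18 members called on EXOSC10 depletion (18 with all libraries), 8 to 12 for 3A over no MYCN (13), 7 to 12 for wild type over no MYCN (11) and 7 to 12 for 3A over wild type (10). The lowest counts came without no MYCN replicate 2 for 3A and without wild type replicate 2 for wild type. Of the partner list, 16 to 18 were called on depletion (18), 8 to 11 for 3A (12), 5 to 11 for wild type (9; 5 when wild type replicate 2, no MYCN replicate 2 or no MYCN replicate 3 was left out) and 15 to 20 between the forms (18). Over all genes the counts were 3810 to 4386 (4639), 2166 to 3617 (3806; 2166 without no MYCN replicate 1 and 2508 without no MYCN replicate 2), 2313 to 3458 (3315) and 3261 to 4901 (4527) in the same order. The 18 members at least 4-fold apart between the lines stayed at 18 without any single library and came to 24 at 2-fold and 13 at 8-fold.

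Whether replicate numbers pair the samples was not settled, and the main fits had no replicate block. Libraries of equal number had residual correlations of 0.03 to 0.04 in IMR-32 and -0.03 to 0.14 in SHEP. Those of unequal number had -0.03 to -0.01 in IMR-32 and -0.13 to 0.06 in SHEP. With the number as a replicate block, 22 members were called on depletion, 15 for 3A, 11 for wild type and 12 between the forms, and 19 partners for 3A in place of 12. Over all genes the block gave 5251 calls on depletion, 4794 for 3A, 4184 for wild type and 5414 between the forms, each above the main fit. With library totals in place of TMM, 19 partners were called for 3A, and the median of all genes moved by -0.0999 for 3A and -0.0673 for wild type. The calls over all genes then split into 1237 higher and 2925 lower for 3A (1893 and 1913 with TMM) and 1167 higher and 2146 lower for wild type (1634 and 1681 with TMM), while members split into 0 higher and 14 lower for 3A and 4 higher and 6 lower for wild type. DESeq2 called 17, 12, 10 and 10 members for depletion, 3A, wild type and 3A over wild type. The cause of these shifts was not tested. No call named here turned direction under any alternative that was run, while results that did not pass were not followed for direction. With 3 libraries a group, members at low levels in SHEP, such as SEMA3E and SEMA6C, rest on few counts there. Of the SHEP gene counts from 1 to 10, 74.2% to 77.1% per library were even. The 2 ends of a read pair may thus have been counted singly, which was not tested.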
